A study of Mus musculus with 60 samples.

Results

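Neurotrophic factors and their receptors were followed through the embryonic mouse jaws, as 8 genes taken by symbol from the platform annotation: the ligands Bdnf, Ntf3 and Gdnf and the receptors Ntrk2, Ntrk3, Ngfr, Ret and Gfra3. A probe set was named for 7 of the 8, of 18193 genes measured in all: 2 ligands and 5 receptors. Ntf3 had no probe set under its own symbol in the annotation used and is not analysed here. Of several probe sets for a gene, the one with the highest mean over the 60 arrays was used. Expression was measured on Affymetrix mouse arrays in mandible (lower jaw) and maxilla (upper jaw) of C57Bl/6 embryos, whose jaws were divided into distal and proximal pieces. The 5 ages were a day apart and ran from E10.5 to E14.5 (embryonic days), and each of the 20 groups had 3 arrays. All groups were of 1 strain and none carried a treatment or an engineered allele that the labels name. Whether a group's 3 arrays came from separate embryos or from pools is not stated in the labels, so p-values measure the spread between arrays, which may be technical.

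Neurotrophic factors are secreted proteins through which tissues that receive nerves keep growing sensory, sympathetic and enteric neurons alive and branching. BDNF binds the receptor tyrosine kinase TrkB, made from Ntrk2. Neurotrophin-3, made from Ntf3, binds TrkC, made from Ntrk3. The p75 receptor, made from Ngfr, binds all neurotrophins and is carried by neurons, migrating neural crest and Schwann cells, and also by mesenchyme. GDNF signals through the kinase Ret together with an anchored co-receptor of the GFRα family, of which GFRα3, made from Gfra3, prefers the related ligand artemin. In the face the neurons concerned are mainly those of the trigeminal ganglion, whose maxillary and mandibular branches run into the jaws from their proximal end.

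The stretches just upstream of 3 members are shown because they stand for the ligand and receptor sides of the comparison. The mouse RefSeq promoter table (GRCm38.p6) held 7 start sites for Bdnf, 2 each for Gdnf and Ntf3, and 1 each for Ngfr and Ntrk2. Each window below is the 250 bases before a start site, written in the direction of the gene, and capitals mark any of 4 motifs searched on both strands. These were the cAMP response half-site TGACG, present in 17.8% of all 32851 promoter windows of this length, the GC box GGGCGG (32.7%), the E-box CAGCTG (13.0%) and the TATA box TATAAA (12.4%).
Bdnf, chr2:109692186-109692435, + strand: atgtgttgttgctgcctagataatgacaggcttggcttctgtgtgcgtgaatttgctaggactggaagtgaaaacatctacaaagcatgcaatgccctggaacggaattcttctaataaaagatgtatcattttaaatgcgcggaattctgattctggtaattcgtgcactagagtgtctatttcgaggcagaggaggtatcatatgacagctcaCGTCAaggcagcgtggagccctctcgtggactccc
Gdnf, chr15:7809798-7810047, + strand: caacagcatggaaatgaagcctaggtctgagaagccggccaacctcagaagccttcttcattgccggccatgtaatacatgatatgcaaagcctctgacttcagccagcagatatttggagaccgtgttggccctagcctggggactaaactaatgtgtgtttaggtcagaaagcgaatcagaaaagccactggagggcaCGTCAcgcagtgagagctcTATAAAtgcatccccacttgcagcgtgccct
Ngfr, chr11:95587699-95587948, - strand: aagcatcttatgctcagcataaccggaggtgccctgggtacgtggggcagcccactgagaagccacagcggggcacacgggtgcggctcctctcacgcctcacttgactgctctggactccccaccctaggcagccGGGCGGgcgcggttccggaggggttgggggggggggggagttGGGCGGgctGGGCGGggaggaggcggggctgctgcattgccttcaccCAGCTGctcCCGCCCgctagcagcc
The Bdnf window was chosen after the search as the only 1 of its 7 with a half-site. Of the other 6, 2 held GC boxes only, 1 an E-box only and 3 none of the motifs, and neither did the second Gdnf window. In the Bdnf window shown the half-site lay with its first base at -35 from the start. The Gdnf window held a half-site at -50 and a TATA box at -31. The Ngfr window had 4 GC boxes, at -114, -72, -63 and -16, and an E-box at -25. The Ntrk2 window held none of these letters. A match is a description of the sequence and not a binding site.

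Array titles place both pieces of a jaw and age in the same of 4 batches, so every distal to proximal difference at 1 age was formed within a batch. Jaws shared a batch only at E11.5 and E12.5 and were compared there only. Orders of levels over the 20 groups cross batches and are given as description. Signals are on the log2 scale, where 1 unit is a doubling. A group mean at or under 4.78, the highest lower quartile of any array, is not taken to show that a gene was present, and a difference that includes such a group is a lower bound at best. The characteristics call the tissue bone. Among bone markers, the osteoblast factor Sp7 was above that level in 20 of 20 groups, while Ibsp, of mineralizing bone, was at or under it in 9 of 20. Hand2, a lower jaw gene, had group means of 8.62 to 13.03 in the mandible and 4.94 to 7.70 in the maxilla. Some arrays stood apart. Distal replicate 3 and proximal replicate 1 of the mandible at E11.5 had raised signal distributions, and distal maxilla E10.5 replicate 1 had a neuron marker mean of 7.13 against 9.42 and 8.95 on the other arrays of its group.

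Markers of neurons and glia also differed along the jaws. The mean log2 signal of 15 neuron markers ran from 11.25 to 12.29 in the proximal maxilla over the 5 ages. It ran from 7.42 to 9.65 in the distal maxilla, highest at E13.5, from 6.12 to 9.34 in the proximal mandible and from 6.50 to 7.34 in the distal mandible. Of the 15, Slc17a6, a glutamate transporter, was at or under 4.78 in all 5 distal mandible groups and Pou4f1, a sensory neuron factor, in 3 of them. All 15 were lower distally in the maxilla (median -3.38 against 0.04 for all genes), and 11 were lower and 1 higher distally in the mandible (median -1.18 against 0.01). Of 6 measured Schwann cell and crest glia markers, 6 were lower distally in the maxilla (median -1.01) and 5 in the mandible (median -0.47), and Cdh19 was at or under 4.78 in 3 mandible groups. Epithelial markers went the other way, with 10 of 10 higher distally in the maxilla and 8 of 10 in the mandible, and all 8 skeletal muscle markers were lower distally in both jaws. In whole tissue pieces, fewer cells of a type and less RNA per cell cannot be told apart. The part of these cell types in the results on the 7 members was not tested.

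On average over ages most receptors were lower distally, and the 2 measured ligands did not share a direction. No test set ligands as a class against receptors. All 5 receptors were lower in the distal maxilla on average over the 5 ages, by 0.75 to 2.01 on the log2 scale. Bdnf was higher there by 0.54, and Gdnf, at -0.09, was not called. In the mandible 4 of the 5 receptors were lower distally, by 0.18 to 0.92, Bdnf was lower by 0.19 and Gdnf higher by 0.23. By limma with Benjamini-Hochberg adjustment over all genes, 6 of 7 members were called in the maxilla, where 50.6% of all genes were called, and 6 of 7 in the mandible, where 36.3% were. With each group mean taken as a single sample, so that the spread over ages enters the error, 4 were called in the maxilla, without Bdnf (adjusted p = 0.173) and Ret (adjusted p = 0.0645), and in the mandible only Ntrk3. The shares of all genes called under that setting were not counted, and 50.6% and 36.3% do not apply to it. At single ages the 5 receptors give 25 tests per jaw, of which 23 were called lower distally and 1 higher in the maxilla, and 11 lower and 2 higher in the mandible. The 2 ligands give 10 tests per jaw, of which 3 were higher and 2 lower in the maxilla, and 2 higher and 2 lower in the mandible.

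By age, the members called between the pieces of the maxilla were 7 of 7 at E10.5 (20.2% of all genes), 6 at E11.5 (34.7%), 5 at E12.5 (39%) and again 5 at E13.5 (15.7%), then 6 at E14.5 (33.7%). For the mandible they were 2 at E10.5 (19.1%), 3 at E11.5 (8.93%), 5 at E12.5 (32.7%), then 4 at E13.5 (25.3%), then 3 at E14.5 (26.8%). The difference between pieces itself differed between the jaws for 6 of 7 members, against 39.9% of all genes. With each group mean as a single sample this held only for Gfra3, and the share of all genes there was not counted. In the fit of all arrays the difference between pieces also differed between E14.5 and E10.5. This held for 6 members in the maxilla (14.9% of all genes) and for 2 in the mandible (25.4%). These last comparisons set differences from different batches side by side, where an additive batch shift cancels and a difference in scale would not.

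**Figure D1:**
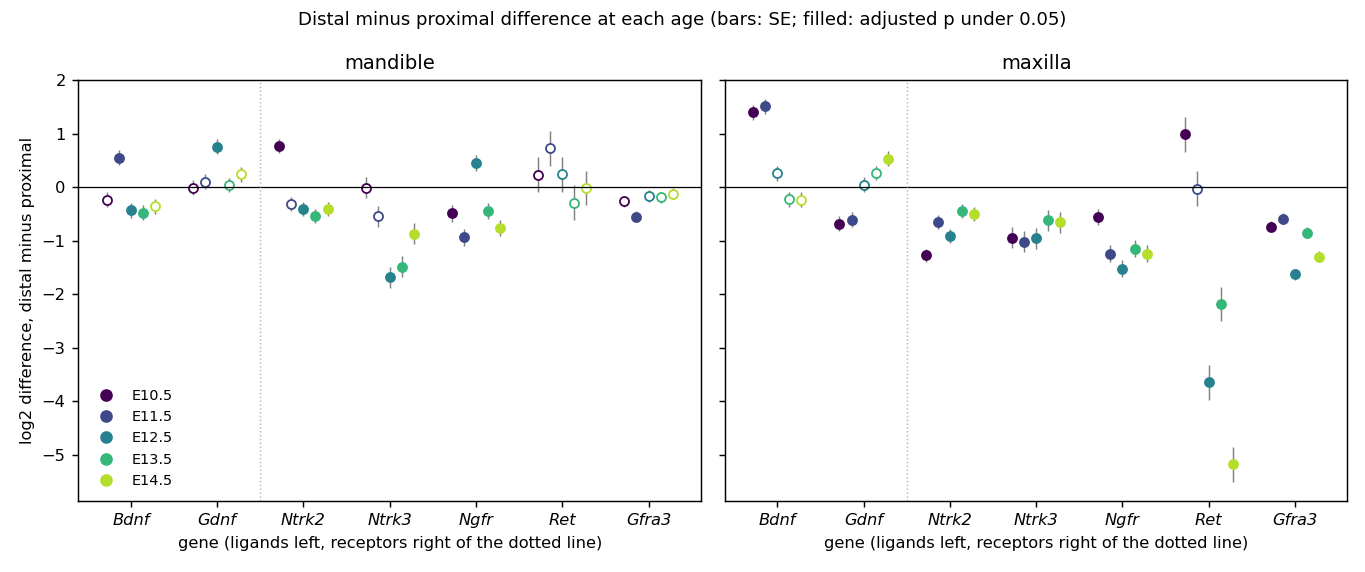
Log2 difference, distal minus proximal, of each member at each of 5 ages in the mandible (left) and the maxilla (right). Bars are standard errors of the limma fit and filled points had an adjusted p under 0.05. In the maxilla the receptors lie below 0 apart from Ret at E10.5, with Ret at E11.5 close to 0 (-0.03), and Bdnf reaches 1.51 at E11.5.

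Bdnf, the ligand of TrkB, was most abundant in the early distal maxilla. At E10.5 its log2 signal there was 9.05, 9.19 and 9.35, against 7.59, 7.71 and 8.10 in the proximal piece. At E11.5 it was 9.21, 9.14 and 9.07 against 7.54, 7.67 and 7.69. The pieces did not overlap at either age, and the differences were 1.40 (SE 0.142, 2.64-fold, limma adjusted p = 2.83e-11) and 1.51 (SE 0.142, 2.85-fold, adjusted p = 1.38e-12). By E12.5 the distal maxilla had 7.66, 7.78 and 7.82 and the proximal 7.54, 7.33 and 7.61, and the difference of 0.26 was not called. The later differences of -0.22 and -0.23 were not called either, with all 12 arrays between 6.67 and 7.45. The distal to proximal difference fell by 1.63 between E10.5 and E14.5 (SE 0.201, limma adjusted p = 9.87e-09).

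Mandibular Bdnf followed another course. At E10.5 the distal piece had 6.72, 7.01 and 7.31 and the proximal 7.16, 7.45 and 7.14, which overlapped. At E11.5 the distal arrays, at 8.35, 8.21 and 8.63, lay above the proximal ones at 7.37, 8.08 and 8.09, a difference of 0.55 (SE 0.142, limma adjusted p = 0.00646). Without the 2 arrays of raised distribution it was 0.20 (adjusted p = 0.497), and without replicate 1 of every group 0.34 (adjusted p = 0.18). With only the arrays compared in the fit the Bdnf call was also lost (adjusted p = 0.327). From E12.5 the order was turned, with distal values of 7.45, 7.50 and 7.65 under proximal values of 7.99, 8.03 and 7.86, a difference of -0.43. A day later it was -0.47, with 7.56, 7.81 and 7.39 against 7.97, 8.17 and 8.05, and the last age, with -0.35, was not called. The call at E12.5 was lost without replicate 1 (-0.37) or replicate 2 (-0.38), and that at E13.5 without replicate 2 (-0.53) or replicate 3 (-0.38). The mandible average of -0.19 fell short of the threshold without replicate 2 (-0.14). Over all 20 groups Bdnf spanned 2.42 log2 units, from 6.78 in the distal maxilla at E14.5 to 9.20 there at E10.5. Of the 19 steps between neighbours in that order 2 separated groups whose arrays did not overlap, both below the distal maxilla at E11.5. A second Bdnf probe set differed in the same direction in the maxilla, by 0.51, and was not called in the mandible.

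Gdnf, the ligand of the Ret complex, had low signal throughout, from a group mean of 5.14 in the distal mandible at E10.5 to 6.38 there at E12.5, so its differences are small and near the lower range of the arrays. Its clearest mandibular difference was at E12.5, where the distal arrays at 6.28, 6.38 and 6.46 lay above the proximal ones at 5.59, 5.54 and 5.72. That difference was 0.76 (SE 0.139, limma adjusted p = 1.63e-05), and at the other 4 ages of the mandible Gdnf was not called. The mandible average of 0.23 was no longer called without replicate 2 of every group (0.18, adjusted p = 0.0599).

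In the maxilla Gdnf changed sides with age. At E10.5 the distal values of 5.66, 5.65 and 5.49 lay under the proximal values of 6.32, 6.16 and 6.38, and at E11.5 values of 5.31, 5.45 and 5.48 lay under 5.93, 5.96 and 6.18. At E14.5 the distal values of 6.35, 6.19 and 6.07 lay above the proximal values of 5.74, 5.74 and 5.53. These differences were -0.68, -0.61 and 0.53 in turn and each was called. The change from E10.5 to E14.5 was 1.22 (SE 0.196, limma adjusted p = 4.2e-06), while the average over ages, -0.09, was not called. Bdnf and Gdnf thus differed in opposite directions between the maxillary pieces at E10.5 and E11.5. In the order of Gdnf levels over the 20 groups, 1 of 19 neighbouring steps separated groups without overlap.

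**Figure D2:**
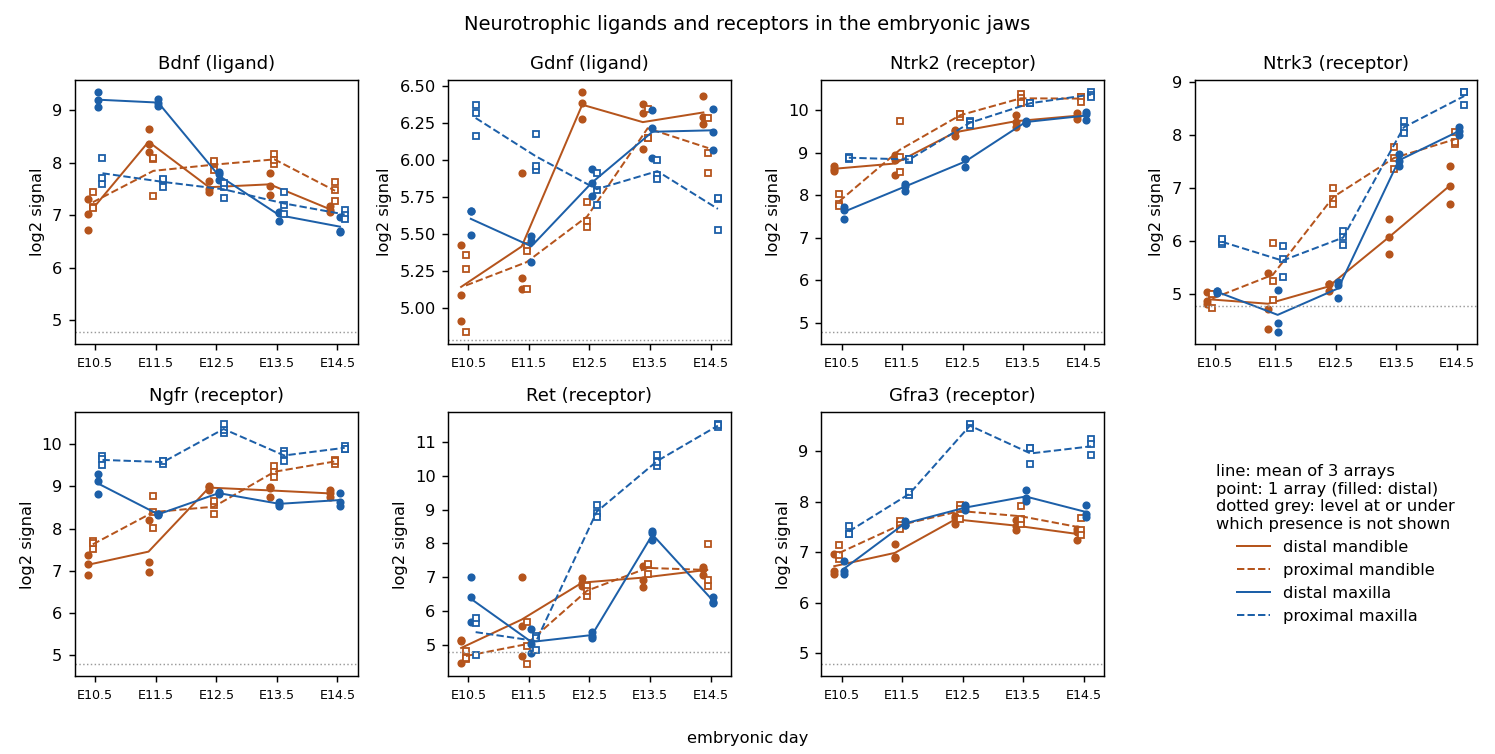
Log2 signal of the 7 members (y axis, own scale per panel) against embryonic day. Points are single arrays, filled for distal pieces, lines join means of 3 arrays, and the dotted grey line marks 4.78. Bdnf is highest in the distal maxilla at E10.5 and E11.5, and Ret in the proximal maxilla from E12.5, reaching 11.48.

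Ntrk2, which encodes TrkB, was lower in the distal maxilla at each of the 5 ages. At E10.5 the distal arrays had 7.45, 7.66 and 7.73 and the proximal 8.90, 8.87 and 8.89. The difference of -1.27 (SE 0.130, limma adjusted p = 3.58e-11) was its largest there, and it was -0.64, -0.92, -0.44 and -0.49 at the following ages. By E14.5 the distal values of 9.95, 9.77 and 9.91 lay under the proximal 10.44, 10.35 and 10.32 without overlap. The call at E13.5 was lost without replicate 2 (-0.44) or replicate 3 (-0.45) of every group.

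In the mandible the direction of the Ntrk2 difference, on the probe set used, changed between ages. The distal piece was higher at E10.5, with 8.69, 8.61 and 8.57 against 8.02, 7.79 and 7.75, a difference of 0.77 (SE 0.130, limma adjusted p = 1.09e-05). None of the other 7 Ntrk2 probe sets was called there, and the mean of the 8 was 0.05 (adjusted p = 0.797). Of the 7, 1420837_at, 1435305_at, 1444121_at and 1458622_at were at or under 4.78 in both pieces, so they do not bear on the difference. They also enter that mean. At E12.5 distal values of 9.52, 9.41 and 9.53 lay under proximal values of 9.92, 9.84 and 9.91, and the differences from E12.5 on were -0.40, -0.54 and -0.41. The proximal arrays at E11.5 spread widely, at 9.76, 8.55 and 8.90, of which the first is the array of raised distribution, and -0.32 was not called. The shift from E10.5 to E14.5 was -1.17 (SE 0.184, adjusted p = 2.11e-06). Leaving out replicate 2 or 3 of every group ended the E12.5 call (-0.39 and -0.41) and the E14.5 call (-0.35 and -0.48). The average over ages, -0.18, was not called without replicate 1 (-0.11) or replicate 3 (-0.20). Ntrk2 spanned 2.76 log2 units over the groups, with 7 of 19 neighbouring steps free of overlap, among them every step from the lowest group, distal maxilla E10.5, up to distal mandible E10.5.

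The 8 probe sets annotated to Ntrk2 did not give a single picture. Ntrk2 is known to be spliced into a full-length kinase, typical of neurons, and truncated forms without the kinase that other cells also make. The sources used here do not give which form each probe set reads. Probe sets 1420837_at and 1444121_at were at or under 4.78 in every group, and they enter each mean of the 8. Beside 1420838_at, used above, 1435196_at differed by -0.64 in the maxilla and was not called in the mandible (-0.09). Probe sets 1458622_at and 1435305_at differed far more, by -4.02 and -3.10 in the maxilla and by -1.41 and -0.99 in the mandible, all called. In the maxilla only distal groups of either were at or under 4.78, so those values are lower bounds. In the mandible proximal groups were under it too, at E10.5 and E11.5, beside the distal ones. The sizes there are therefore uncertain. At E12.5 the probe set 1458622_at read 9.34, 9.31 and 9.59 in the proximal maxilla, 5.94, 6.20 and 5.66 in the proximal mandible, and at most 4.39 on all 6 distal arrays. Its 3 values in the distal maxilla at E10.5 were 4.42, 6.87 and 5.88, the lowest on the array whose neuron markers were also lowest. In the proximal maxilla from E12.5 to E14.5 it fell by 0.99 while 1420838_at rose by 0.66.

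**Figure D3:**
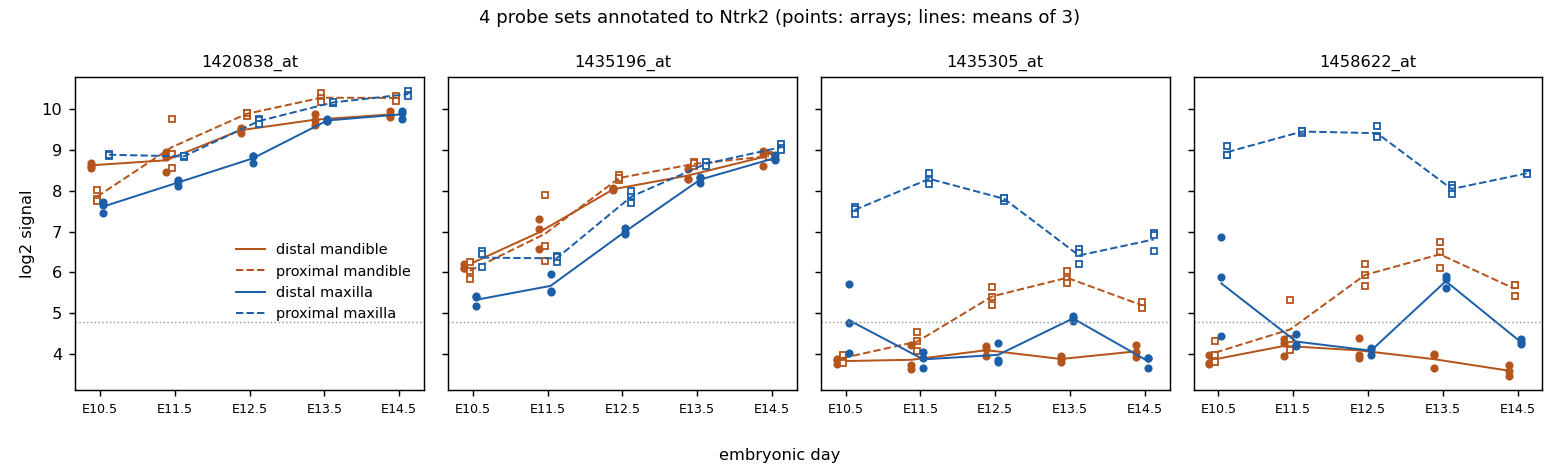
Log2 signal of 4 of the 8 probe sets annotated to Ntrk2 (y axis, shared) against embryonic day, points for arrays and lines for means of 3. Probe set 1420838_at reads between 7.45 and 10.44 on every array, while 1435305_at and 1458622_at stand high in the proximal maxilla and near or under the dotted line (4.78) in most distal groups.

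Ntrk3, which encodes TrkC, was lower distally in both jaws, by 0.92 in the mandible (SE 0.088, limma adjusted p = 1.69e-12) and by 0.84 in the maxilla (SE 0.088, adjusted p = 1.26e-11), and the difference between jaws, -0.08, was not called. By the mean of the 8 Ntrk3 probe sets the differences were -0.26 in the mandible and -0.63 in the maxilla, and the difference between jaws, 0.38, was called (adjusted p = 6.8e-10). At E12.5 the mandible had 5.06, 5.19 and 5.19 distally and 6.79, 7.01 and 6.70 proximally, a difference of -1.68. The next day it had 6.07, 5.76 and 6.41 against 7.36, 7.77 and 7.56, and the day after 7.03, 6.69 and 7.41 against 7.82, 7.87 and 8.05, with differences of -1.48 and -0.87. The pieces of the mandible overlapped at E10.5 and E11.5, where Ntrk3 was not called and values ran from 4.35 to 5.97. The size of the difference grew by 0.86 from E10.5 to E14.5, a change no longer called without replicate 1 (-0.74) or replicate 2 (-0.80) of every group.

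Maxillary Ntrk3 was lower distally at each of the 5 ages. At E10.5 the values were 5.07, 5.02 and 5.06 against 5.95, 5.98 and 6.04, a difference of -0.94, and at E14.5 they were 8.14, 8.08 and 7.997 against 8.81, 8.81 and 8.57, a difference of -0.65. Its lowest group was the distal maxilla at E11.5, with 4.30, 5.09 and 4.46, whose mean of 4.62 is under the level that shows presence. The -1.02 there is therefore a lower bound. At E13.5 the call (-0.62) was lost without replicate 1 (-0.62) or replicate 2 (-0.51). Its groups spanned 4.11 log2 units, with 6 of 19 neighbouring steps free of overlap. Among the other 7 Ntrk3 probe sets, 1455917_at and 1447723_at differed by -1.86 and -1.55 in the maxilla, with groups under 4.78 in both, more than the probe set used. Smaller called differences came from 1422329_a_at (-0.52), 1425071_s_at (-0.22) and 1425070_at (-0.16), while 1443970_at (-0.01) and 1426003_at (0.08) were not called. Of these, 1425070_at and 1426003_at were at or under 4.78 in every group and 1425071_s_at in most maxilla groups. Their values do not show the gene present there, and they enter each mean of the 8.

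Ngfr, the p75 receptor, was lower in the distal maxilla at all 5 ages. At E12.5 the distal arrays had 8.85, 8.81 and 8.86 and the proximal 10.28, 10.33 and 10.47, its largest difference, -1.52 (SE 0.156, 2.87-fold, limma adjusted p = 1.25e-11). At E10.5 the pieces were closest, with 9.12, 9.28 and 8.82 against 9.72, 9.65 and 9.51, a difference of -0.55 that was not called without replicate 1 (-0.53) or replicate 3 (-0.49) of every group. At the other 3 ages the differences were -1.24, -1.15 and -1.24 in turn, without overlap of arrays. The change from E10.5 to E14.5, -0.69, was lost without any of replicates 1, 2 or 3. Other Ngfr probe sets had lower signal and smaller differences. At E12.5 the maxillary means of 1450177_at were 6.125 distally and 6.893 proximally, and those of 1421241_at 5.17 and 5.67. At E14.5 those of 1421241_at were 5.01 and 5.08.

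Mandibular Ngfr was higher distally at E12.5 and lower there at each of the other 4 ages. At E14.5 the distal arrays had 8.83, 8.75 and 8.92 and the proximal 9.63, 9.54 and 9.60, a difference of -0.76 (SE 0.156, limma adjusted p = 1.55e-04). At E12.5 the distal values of 9.01, 8.99 and 8.92 lay above the proximal 8.34, 8.57 and 8.65, a difference of 0.45 that was not called without replicate 1 (0.34). At E11.5 distal values of 7.20, 8.20 and 6.96 overlapped proximal values of 8.77, 8.01 and 8.38, and the -0.94 was not called without replicate 1 (-0.62) or with only the arrays compared in the fit (adjusted p = 0.212). Without the 2 arrays of raised distribution it was -0.50 (adjusted p = 0.0356). The smaller differences were also lost on leaving out a replicate, at E10.5 (-0.48) without replicate 1 (-0.56) or 3 (-0.35) and at E13.5 (-0.44) without replicate 1 (-0.41) or 2 (-0.36). Ngfr spanned 3.22 log2 units, its highest group was the proximal maxilla at E12.5, and 4 of 19 neighbouring steps were free of overlap.

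Ret, the kinase of the GDNF receptor complex, showed the widest range of the 7 members, 6.81 log2 units. In the proximal maxilla it read 4.71, 5.64 and 5.79 at E10.5 and 5.27, 4.86 and 5.22 at E11.5. In another batch it read 8.89, 8.79 and 9.13 at E12.5, 10.63, 10.29 and 10.40 at E13.5 and 11.44, 11.52 and 11.49 at E14.5. The last 3 groups were the 3 highest of all 20 and did not overlap each other. From E12.5 to E14.5, within a batch, the rise was 2.54 (SE 0.323, 5.83-fold, limma adjusted p = 4.71e-09). The neuron marker mean of the same pieces was 12.29 at E12.5 and 11.64 at E14.5, 7 of the 15 markers fell over that interval and none rose by the test (median -0.50). Glia markers there fell for 4 of 6 and rose for 1.

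The distal maxilla kept lower Ret from E12.5 on. Its arrays had 5.27, 5.21 and 5.39 at E12.5, a difference of -3.65 (SE 0.323, 12.51-fold). A day later they had 8.37, 8.31 and 8.11, a difference of -2.18, and then 6.41, 6.25 and 6.26, a difference of -5.18 (SE 0.323, 36.1-fold, limma adjusted p = 8.06e-19). The E13.5 distal arrays thus stood above those of both neighbouring ages, and the neuron marker mean did the same, at 9.65 against 7.42 and 7.64. At E10.5 Ret was called the other way, 0.99 higher distally, but with 7.003, 6.40 and 5.69 against 4.71, 5.64 and 5.79 the arrays overlapped. This early call was lost without replicate 1 of every group (0.33, adjusted p = 0.694) and without distal replicate 1 alone (0.67, adjusted p = 0.206). The change of the difference from E10.5 to E14.5 was -6.16 (SE 0.457, adjusted p = 3.68e-15).

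Mandibular Ret was called between the pieces at none of the 5 ages by limma (unadjusted p under 0.05 at 1 of them), nor on average (0.18, unadjusted p = 0.216, adjusted p = 0.363). At E14.5 the distal values of 7.24, 7.06 and 7.32 lay within the proximal range of 6.73, 6.92 and 7.99. At E11.5 the distal arrays were far apart, at 5.56, 7.01 and 4.68, against 5.68, 4.43 and 4.97 proximally. Without the 2 arrays of raised distribution that difference was 1.59 in place of 0.73 and was called (adjusted p = 6.83e-04), and so was the average, at 0.35 (adjusted p = 0.0251). This left distal arrays at 5.56 and 7.01 and proximal arrays at 4.43 and 4.97. The mean of the latter is under 4.78, so the 1.59 is a lower bound at best. The lowest group of all was the proximal mandible at E10.5, with a mean of 4.67, under the level that shows presence. Both averages over ages include that group, so their sizes are uncertain. A second Ret probe set, 1421359_at, differed less, by -0.39 in the maxilla, and rose by 0.77 in the proximal maxilla from E12.5 to E14.5.

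**Figure D4:**
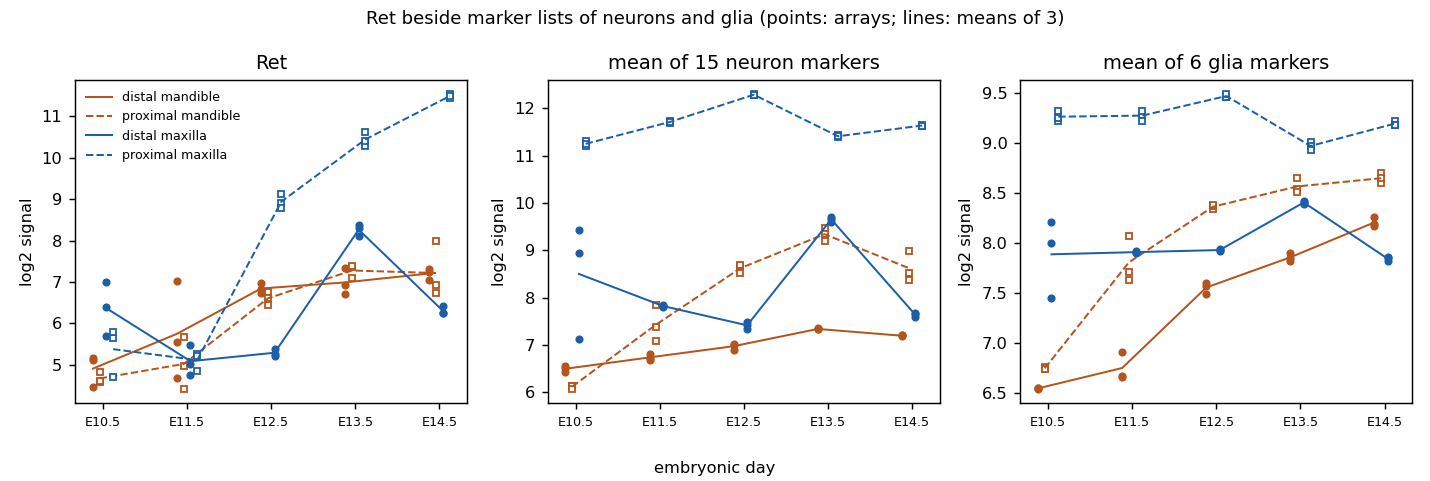
Log2 signal of Ret (left), the mean log2 signal of 15 neuron markers (middle) and of 6 Schwann cell and crest glia markers (right) against embryonic day, points for arrays and lines for means of 3, each panel on its own scale. In the proximal maxilla Ret goes from 8.94 at E12.5 to 11.48 at E14.5 while the neuron mean goes from 12.29 to 11.64, and in the distal maxilla both are highest at E13.5.

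Gfra3, the artemin co-receptor, was lower in the distal maxilla at every one of the 5 ages and without overlap of arrays. At E12.5 the distal arrays had 7.89, 7.83 and 7.93 and the proximal 9.52, 9.53 and 9.46, a difference of -1.62 (SE 0.104, 3.08-fold, limma adjusted p = 1.47e-18). The differences were -0.74 and -0.59 at the earlier ages and -0.85 and -1.30 at the later ones. Between E10.5 and E14.5 the difference changed by -0.56, a call that was lost without replicate 1 (-0.47) or replicate 2 (-0.52) of every group. In the mandible Gfra3 was called at E11.5, by -0.55, with 6.91, 7.16 and 6.89 distally and 7.61, 7.53 and 7.46 proximally, a call lost with only the arrays compared in the fit (adjusted p = 0.0742). It was not called at the other 4 ages there, where differences ran from -0.26 to -0.12, although the average of -0.26 was. Its groups spanned 2.83 log2 units and 4 of 19 neighbouring steps were free of overlap, with the proximal maxilla from E12.5 to E14.5 holding the 3 highest places.

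Mandible and maxilla were set against each other at E11.5 and E12.5, where they share a batch. On the probe sets used, the receptors called did not all differ in the same direction. Averaged over pieces, 5 members were called at E11.5 (33.5% of all genes) and 4 at E12.5 (41.3%). Ngfr was lower in the mandible by 1.04 and 0.86 in turn, and Gfra3 by 0.60 and 0.96. Ntrk2 was higher in the mandible by 0.39 and 0.44 on the probe set used. All 15 neuron markers were lower in the mandible at both ages, with medians of -2.89 and -2.20, and 5 of 6 glia markers were. The direction of Ntrk2 depended on the probe set, since 1458622_at was lower in the mandible by 2.48 and 1.74, and the mean of all 8 gave -0.44 and -0.26. Groups of 1458622_at were under 4.78 in both jaws at each of these ages, so the sizes of its differences are uncertain.

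Distal pieces alone gave 4 members called at E11.5 (25.7% of all genes) and 3 at E12.5 (23.2%), and proximal pieces alone gave 3 (32.1%) and 5 (43.6%). Bdnf was lower in the distal mandible than in the distal maxilla at E11.5, by 0.74 (SE 0.142, limma adjusted p = 5.49e-05). In the proximal pieces at E12.5 Bdnf was 0.47 higher in the mandible, a call lost without replicate 2 (0.35), while Ngfr, Ret and Gfra3 were lower there by 1.84, 2.33 and 1.69. Ntrk3 was 0.76 higher in the proximal mandible at E12.5 on the probe set used, and -0.50 by the mean of its 8 probe sets. The distal pieces at E12.5 showed Ret 1.55 higher in the mandible, Ntrk2 0.69 higher and Gdnf 0.53 higher, with Ret arrays at 6.97, 6.74 and 6.82 against 5.27, 5.21 and 5.39. Gdnf was 0.72 lower in the proximal mandible at E11.5. Averaged over pieces, the calls of Bdnf at E11.5 (-0.27) were lost without replicate 1 (-0.14) or replicate 2 (-0.27), that of Gdnf (-0.36) without replicate 3 (-0.27) and that of Ntrk3 at E12.5 (0.40) without replicate 1 (0.39) or replicate 2 (0.34). The distal Ntrk2 difference at E11.5, 0.55, was not called without replicate 2 (0.41).

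Ages were compared only within a batch. From E10.5 to E11.5 the distal mandible had 2 members called (29.6% of all genes) and the proximal mandible 4 (39.9%). Bdnf rose in both, by 1.38 distally (SE 0.142, limma adjusted p = 4.78e-11) and by 0.60 proximally. Proximally Ntrk2 rose by 1.21, Ngfr by 0.76 and Gfra3 by 0.55, beside rises of 10 of 15 neuron markers (median 1.08) and 5 of 6 glia markers (median 0.99). Distally the rise of Ret, 0.84, was not called without replicate 1 (1.03) or replicate 2 (0.33). Without the 2 arrays of raised distribution 5 members were called distally, with Ret at 1.38, and the share of all genes there was not counted.

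From E13.5 to E14.5 the distal mandible had 2 members called (17% of all genes) and the proximal mandible 1 (21.4%). Bdnf fell in both, by 0.48 and 0.60, and both calls were lost without replicate 2 of every group (-0.36 and -0.45). Ntrk3 rose by 0.96 in the distal mandible (SE 0.197, limma adjusted p = 2.46e-04). Neuron markers fell in the proximal mandible over this day for 11 of 15 (median -0.77) and rose distally for 1.

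From E12.5 to E14.5 the distal maxilla had 5 members called (44.9% of all genes) and the proximal maxilla 6 (42.6%). On the probe set used Ntrk3 rose by 2.96 distally (SE 0.197, 7.77-fold, limma adjusted p = 9.87e-18) and by 2.66 proximally (6.32-fold). The mean of its 8 probe sets gave 0.80 and 0.55, and proximally 1447723_at fell by 0.40. Ntrk2 rose by 1.09 and 0.66 on the probe set used, against 0.34 and -0.08 by the mean of its 8. Ret rose by 1.01 and 2.54, against 0.45 (adjusted p = 0.0684) and 1.66 by the mean of its 2 probe sets. Bdnf fell by 0.97 and 0.48. Ngfr and Gfra3 fell in the proximal piece, by 0.45 and 0.41, and were not called in the distal one. Gdnf rose by 0.35 distally, a call lost without replicate 1 (0.23) or replicate 2 (0.36). Calls were also lost for Ret distally without replicate 1 (0.95), for proximal Ngfr without replicate 1 (-0.51) or 3 (-0.38) and for proximal Bdnf without replicate 3 (-0.38). Over the same days 6 neuron markers rose and 4 fell distally, and none rose and 7 fell proximally.

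Other genes of these pathways were taken from lists. Of 4 measured other ligands, 3 were higher distally in each jaw and none lower, where 50.6% of all genes were called in the maxilla and 36.3% in the mandible. Ntf5, the second TrkB ligand, was 0.94 higher distally in the maxilla and 0.32 in the mandible, and Nrtn, which encodes neurturin, 0.38 and 0.24. Artn, which encodes the artemin that GFRα3 binds, was 0.24 and 0.48 higher, so on average over ages ligand and co-receptor differed in opposite directions along both jaws. Artn signal was low, with group means from 4.82 to 6.59, and mandibular Gfra3 was called at E11.5 alone of the single ages. Pspn was not called. Over these 4 the median difference was 0.31 in the maxilla and 0.28 in the mandible, against 0.04 and 0.01 for all genes.

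Of 7 measured other receptors and co-receptors, 5 were lower and 2 higher distally in each jaw, with medians of -0.67 in the maxilla and -0.21 in the mandible, beside the same 50.6% and 36.3% of all genes. Gfra1, the co-receptor GDNF prefers, was 1.19 lower distally in the maxilla and 0.37 in the mandible. Gfra2, the co-receptor of neurturin, was 1.17 and 0.34 lower. Ncam1, an adhesion molecule that GDNF can also bind, was 0.97 lower in the distal maxilla and 0.27 higher in the distal mandible, and Sorcs2, a sortilin family receptor, 0.15 higher and 0.54 lower. Lingo1 and Sort1 were lower distally in both jaws and Gfra4 higher. Among 9 measured adaptors and substrates, 2 were higher and 4 lower in the distal maxilla, led by Kidins220, a Trk substrate (-0.80), and Grb7 (0.68), and 1 was higher and 2 lower in the distal mandible, shares near those of all genes. Between the jaws, where 33.5% of all genes were called at E11.5 and 41.3% at E12.5, 2 of the other ligands were higher in the mandible at E11.5 and 3 at E12.5, and the other receptors gave 3 higher and none lower at E11.5, and 1 higher and 4 lower at E12.5. The adaptors gave 2 higher and 1 lower at each of these ages. For facial mesenchyme markers, 3 were higher and 3 lower of 8 in the distal mandible and 5 and 1 in the distal maxilla, and for endothelial markers none and 4 of 6, and 1 and 1.

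The genes whose 20 group means ran most like each member were found among 13074 other genes, as a description in which groups share batches and tissue makeup. Bdnf was nearest to Sdhaf3 (Pearson r = 0.89), Crnde (0.85) and Zfp472 (0.83), and Gdnf to Itprid2 (0.85), Arhgef26 (0.85) and Spon1 (0.84). The receptors had closer neighbours, and also wider spans over the groups, of 2.76 to 6.81 log2 units against 2.42 for Bdnf and 1.235 for Gdnf. The part of span in this was not tested. Ntrk2 ran with Enpp5 (0.96), Rflna (0.94) and Gabarap (0.94), and Ntrk3 with Lgmn (0.95), S100b (0.94), a glial calcium-binding protein, and Ecrg4 (0.94). Ngfr ran with Edil3 (0.92), Cpeb4 (0.91) and Rtn4 (0.91), Ret with Eno2 (0.95), the neuronal enolase, Abhd3 (0.94) and Ttc9 (0.92), and Gfra3 with Spock1 (0.95), Irgq (0.95) and Rab3a (0.94), a synaptic vesicle protein.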

How the data were processed

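Total RNA (3 micrograms per array, per the labels' protocols) from mouse jaw pieces was hybridized to Affymetrix arrays. The deposited values are log2 signals, which the submitters' processing notes attribute to RMA (background correction, normalization between arrays, probe summary). The sources used here do not say whether the 60 arrays were normalized together. Of 45101 probe sets, 64 controls were left out, 34945 carried a single gene symbol, 932 several and 9160 none named here. The last 2 kinds were not assigned to genes. The number of arrays limits precision.

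A single limma fit (version 3.58.1, R 4.3.3) with 20 group means left 40 residual degrees of freedom. It used eBayes with a trend, tests were two-sided, and p-values were adjusted by Benjamini-Hochberg over 18193 genes, with calls at an adjusted p under 0.05. The fit was tested on simulated data. The 8 members and the gene lists were chosen with earlier results of these data known. In every comparison all measured members were named. From other pathway lists, up to 4 called genes of largest difference were named. For nearest genes, the 3 with the highest correlation over group means were named. Replicate numbers were not taken to pair arrays. Of 30 same-numbered pairs, 10 had a correlation over 0.1. Differently numbered pairs were not set beside them, so this cannot decide on pairing. The 10 included all 3 of the maxilla at E10.5, where a block on the number was tried.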

Additional observations from a re-analysis of the deposited data

Results flagged for a closer look

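Each result here is a difference of 2 differences by limma. The distal to proximal difference differed between mandible and maxilla for 6 members, given as mandible minus maxilla: Bdnf by -0.73 (SE 0.0898), Gdnf by 0.32 (SE 0.0878), Ntrk2 by 0.57 (SE 0.0824), Ngfr by 0.71 (SE 0.0988), Ret by 2.19 (SE 0.204) and Gfra3 by 0.76 (SE 0.0659). The Ret value includes a group under 4.78, so its size is uncertain.

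The same difference changed between E10.5 and E14.5, given as the later minus the earlier, for Ntrk2 (-1.17) and Ntrk3 (-0.86) in the mandible. In the maxilla it changed for Bdnf (-1.63), Gdnf (1.22), Ntrk2 (0.78), Ngfr (-0.69), Ret (-6.16) and Gfra3 (-0.56). The ages compared lie in different batches, and an effect of batch on scale cannot be told apart from age there. Neuron markers moved too, with medians of -1.43 in the mandible and -1.21 in the maxilla over the same interval, and their part was not tested.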

How the results depend on the processing

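Of 2933 member values under the alternatives, 2695 kept direction and side of the threshold, 169 lost a call, 61 gained one and 8 reversed. A further 48 sign changes of values called under neither setting were given no direction. Averages over the probe sets of Ntrk2 and of Ntrk3 include some at or under 4.78 in every group. All 8 reversals came with averaging of a gene's probe sets: Ntrk3 for position by jaw (0.38), Ntrk2 for the jaws at E11.5 (-0.44), in proximal pieces at E11.5 (-1.12), at E12.5 (-0.26) and in proximal pieces at E12.5 (-0.80), Ntrk3 for the jaws at E12.5 (-0.25) and in proximal pieces then (-0.50), and Ntrk2 in the proximal maxilla from E12.5 to E14.5 (-0.079).

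Requiring at least a 2-fold difference, a stricter rule by construction, left 0 members called for position in the mandible, 3 in the maxilla and 1 between jaws. The share of all genes passing this rule was not counted, so the member counts in this paragraph have no such baseline. From E10.5 to E14.5 it left 0, 0, 1, 1 and 0 for the mandible, and for the maxilla 2, 3, 3, 2 and 3. It left 1 for the change of the difference with age in the mandible and 3 in the maxilla. Between the jaws it left 1, 0 and 1 at E11.5 and 0, 1 and 3 at E12.5 (both pieces, distal, proximal). For ages it left 1, 0 and 3 distally and 1, 0 and 2 proximally (mandible to E11.5, mandible to E14.5, maxilla).

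With each group mean as a single sample, which leaves fewer samples, 1 member was called in the mandible and 1 between jaws, each in place of 6, and 4 in the maxilla. The share of all genes called under that setting was not counted. Fitting only the arrays compared gave 0 for the mandible at E11.5, 3 for the jaws at E11.5, 6 for distal jaws at E12.5, 1 for the distal mandible to E11.5 and 2 for the proximal mandible to E14.5. Array quality weights gave 5 for the mandible at E11.5, for proximal jaws at E11.5 and for distal jaws at E12.5. The mean of probe sets gave 0 for the mandible at E10.5 and 5 for proximal jaws at E11.5. Without the 2 arrays of raised distribution 5 were called for proximal jaws at E11.5 and 5 for the distal mandible to E11.5. For the latter, repeated quantile normalization, centring on array medians, all probe sets as units and eBayes without trend each gave 1. Except where construction is named, the cause was not tested.

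Leaving out each replicate number gave 1 to 2 members called for the mandible at E10.5, 1 to 5 at E11.5, 3 to 4 at E12.5 and 2 to 3 at E13.5, 3 to 4 for the maxilla at E13.5, and 1 to 2 for the change with age in the mandible. For ages it gave 1 to 4 in the distal mandible to E11.5, 1 to 2 to E14.5, 3 to 5 in the distal maxilla and 0 to 1 in the proximal mandible to E14.5. The shares of all genes called without a replicate or with a block were not counted, so these member counts have no such baseline. The replicate block, with an effect per number shared by all 20 groups, changed 0 of 27 counts. Such a block cannot show pairing of pieces within a single jaw and age. Same-numbered arrays correlated between -0.36 and 0.44 (median 0.0085). Without differently numbered arrays beside them this cannot decide on pairing, and the numbers were not taken as pairs. In the maxilla at E10.5, where all 3 pairs correlated over 0.1, a block on the number, chosen after seeing the data, left 7 members called. Further settings chosen after seeing the data omitted maxilla E13.5 with mandible E11.5, or distal maxilla E10.5 replicate 1. The former lost the mandible call of Ntrk2 (-0.14) and gained that of Gdnf in the maxilla (-0.18), and the latter lost that of Ret at E10.5 (0.67). Rescaling moved the median of all genes by at most 0.071. Low signal limits Gdnf, Artn and early Ret and Ntrk3.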
